A study of Mus musculus with 4 samples.

Results

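The E protein genes and their Id inhibitors were compared between in vitro-derived and thymic CD8+ T cells of the mouse. The members were 7 genes chosen by name: the E protein genes Tcfe2a (now Tcf3), Tcf12 and Tcf4, the inhibitor genes Id1, Id2 and Id3, and Lyl1. Every non-control probe carrying one of these names was taken, which gave 14 probes of 41174 on the array. All 14 passed the filter on dim probes and were among the 27236 probes tested, which stood for 19162 genes.

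E proteins are basic helix-loop-helix transcription factors that bind DNA as dimers at the E box, and in thymocytes they sustain genes of T cell receptor assembly. Id proteins carry the helix-loop-helix but no basic region, so an E protein bound to one cannot bind DNA. Lyl1 is a basic helix-loop-helix factor of early blood progenitors that binds DNA as a partner of E proteins.

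The in vitro-derived cells came from Lin-Sca1+CD117+ marrow progenitors of C57Bl/6 mice aged 6 to 8 weeks, 100000 of which were grown for 35 days on OP9-DL1 stroma with Flt3 at 5 ng/ml and IL7 at 1 ng/ml. OP9-DL1 is a mouse marrow stromal line that presents the Notch ligand Delta-like 1. The thymic cells came from untreated C57Bl/6 mice aged 4 to 5 weeks. Both kinds were sorted as CD8+ cells with high T cell receptor beta, and 2 RNA preps of each kind were hybridised in all 4 pairings, in vitro-derived RNA in Cy5 and thymic RNA in Cy3. No dye was swapped, so a dye effect of a single probe and the kind of cell cannot be told apart. The labels do not give the number of animals or cultures behind a prep, so the spread between preps may be technical.

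Of 43379 non-control spots per array, 66.5% to 70.9% were well above background in the Cy5 channel of in vitro-derived RNA and 63.7% to 65.6% in the Cy3 channel of thymic RNA. The log2 ratios of the 4 arrays correlated at 0.943 to 0.983 across probes. The 8 markers of CD8 T cells were well above background on every array in both kinds. In in vitro-derived cells 2 of them were called higher and 4 called lower, beside 26.7% and 25.3% of all genes tested. Those called higher were Thy1 (log2 difference 1.00) and Lck (0.49), though the other Thy1 probe gave -0.23. Those called lower were Cd8b1 (-0.95), Cd8a (-0.76), Cd3g (-0.70) and Cd3e (-0.42), though the other Cd8b1 probe gave -0.20. Cd8a, a coreceptor chain, had log2 levels of 15.46 and 15.19 in in vitro preps 1 and 2, against 16.07 and 16.09 in thymic preps 1 and 2. The arrays read bulk RNA, in which fewer cells of a type and less RNA per cell cannot be told apart.

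Since E proteins bind the E box, the 250 bases before the annotated start sites were read from RefSeq (build GRCm38.p6). Of the 7 genes, 5 matched with 7 windows: Tcfe2a under its current name Tcf3, Tcf12 with 3 windows, Id2, Id3 and Lyl1, leaving Id1 and Tcf4. The windows of an E protein gene with a wide difference (Tcf12, first window, chr9:72111820-72112069, minus strand), of the inhibitor that fell (Id2, chr12:25096093-25096342, minus strand) and of Lyl1 (chr8:84701207-84701456, plus strand) are printed 5′ to 3′, with each match to CANNTG in capitals.
Tcf12: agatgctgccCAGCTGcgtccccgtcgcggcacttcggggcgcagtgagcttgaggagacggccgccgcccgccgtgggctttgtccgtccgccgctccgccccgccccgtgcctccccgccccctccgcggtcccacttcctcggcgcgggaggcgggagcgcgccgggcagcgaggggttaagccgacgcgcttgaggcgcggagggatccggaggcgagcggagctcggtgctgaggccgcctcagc
Id2: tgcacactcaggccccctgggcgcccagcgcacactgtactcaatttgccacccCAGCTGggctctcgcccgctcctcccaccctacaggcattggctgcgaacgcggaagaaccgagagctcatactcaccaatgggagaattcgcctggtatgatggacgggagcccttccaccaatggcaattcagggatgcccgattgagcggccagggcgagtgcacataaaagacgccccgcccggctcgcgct
Lyl1: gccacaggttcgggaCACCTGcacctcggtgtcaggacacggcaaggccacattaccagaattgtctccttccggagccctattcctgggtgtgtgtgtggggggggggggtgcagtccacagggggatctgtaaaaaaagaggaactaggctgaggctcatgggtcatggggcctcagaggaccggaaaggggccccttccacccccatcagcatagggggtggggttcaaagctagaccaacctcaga
Tcf12 and Id2 each held 1 match, of the letters CAGCTG, whose first base lay 240 bases before the start in Tcf12 and 196 bases before it in Id2. Lyl1 held 1 match, CACCTG, 235 bases before its start. The Tcf3 window and the second Tcf12 window each held 1 match of other letters (CACTTG and CAAGTG), and the windows of Id3 and of the third Tcf12 start held none. CANNTG reads the same on both strands, and a match stood in 5 of the 7 windows, beside 66.2% of all 32851 windows of this length. CAGCTG, which is one form of CANNTG, stood in 13% of all windows, and CAGGTG or its reverse complement CACCTG in 17.2%. A match is a run of letters and was not tested as a binding site.

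In in vitro-derived cells the 3 E protein genes and Lyl1 were higher than in thymic cells, Id2 was lower, and Id1 and Id3 did not pass the test. Of the 14 probes, 9 were called higher and 2 lower at a Benjamini-Hochberg adjusted p under 0.05 in limma, beside 52.2% of all tested probes called (26.6% higher and 25.6% lower). In those 11 probes the preps of the kinds did not overlap, as in 77.3% of all tested probes. So many probes were called that the count of members says little by itself, and the sizes say more. Differences like that of Tcfe2a were common on these arrays, and differences like that of Id2 were not: 0.775% of tested probes had a larger log2 difference in size than its brighter probe, against 25.5% for the brighter Tcfe2a probe.

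**Figure D1:**
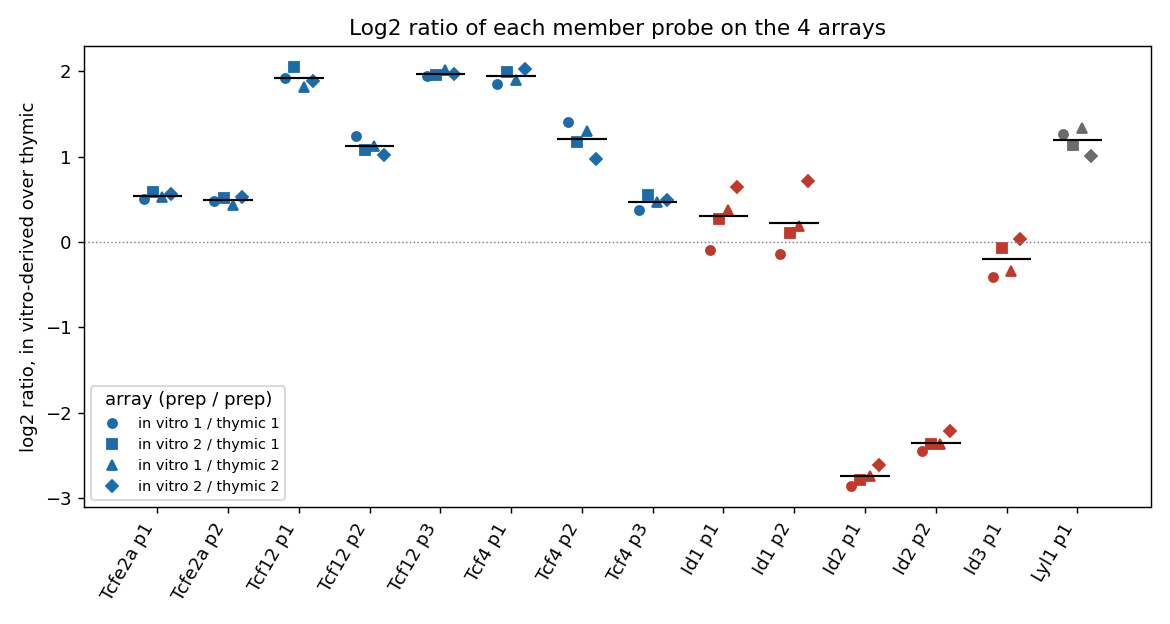
Log2 ratio of in vitro-derived over thymic signal (vertical axis) for each of the 14 probes (horizontal axis, p1 to p3 in the order they are described for each gene except that Tcf12 p2 is the probe that lies apart), with 1 marker shape per array and a bar at the mean. E protein genes are blue, Id genes red and Lyl1 grey; the Id2 probes lie at -2.74 and -2.35, and the Id1 and Id3 probes have arrays on both sides of 0.

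Tcfe2a, which encodes the E12 and E47 proteins through alternative exons, had the smallest difference of the called E protein genes by its brighter probe. That probe (A_51_P394471) had normalised log2 intensities of 13.02 and 13.04 in in vitro preps 1 and 2, against 12.48 and 12.49 in thymic preps 1 and 2. Both in vitro values lay above both thymic ones, and the preps of a kind were nearly level. The log2 difference was 0.54 ± 0.06 (SE; 1.46-fold; limma adjusted p = 0.0013), with array ratios of 0.50 to 0.59. The dimmer probe (A_52_P141662), which lies 3.32 kb away in the coordinates of the scanner files, differed by 0.49 ± 0.06 (limma adjusted p = 0.0021). The probes of Tcfe2a thus gave the same call, with a gap of 0.06 between them.

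Tcf12 encodes HEB, the partner of Tcfe2a products in thymocytes. Its brightest probe (A_52_P20048) had log2 levels of 14.56 and 14.57 in in vitro preps 1 and 2, against 12.54 and 12.75 in thymic preps 1 and 2. The groups did not overlap, and the log2 difference was 1.92 ± 0.08 (3.78-fold; limma adjusted p = 7.1e-05). A probe 1.27 kb from it (A_51_P310135) gave 1.97 ± 0.06 (3.92-fold; limma adjusted p = 3.5e-05). The third Tcf12 probe was called too, with a smaller difference.

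The probe that lies apart (A_52_P859153) is 98.9 kb and 97.6 kb from the others and had log2 levels of 12.29 and 12.18 in in vitro preps 1 and 2, against 11.07 and 11.17 in thymic preps 1 and 2. Its difference was 1.12 ± 0.08 (2.17-fold; limma adjusted p = 2.8e-04). On all 4 arrays its ratio was below those of both other probes, by 0.80 and 0.85 on average. RefSeq gives Tcf12 3 start windows, the second 0.618 kb and the third 216 kb from the first. Which transcripts each probe reads was not tested, because the sources used here do not give the build of the probe positions.

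Tcf4, the E protein gene known for its role in plasmacytoid dendritic cells, was also higher in in vitro-derived cells. Its brightest probe (A_51_P265137) had log2 levels of 10.50 and 10.71 in in vitro preps 1 and 2, against 8.69 and 8.63 in thymic preps 1 and 2. The difference of 1.94 ± 0.07 (3.84-fold; limma adjusted p = 5.5e-05) was far larger than the gap between preps. A probe only 0.931 kb away (A_52_P424847) gave 1.21 ± 0.11 (2.31-fold; limma adjusted p = 7.7e-04), lower on all 4 arrays.

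The third Tcf4 probe (A_52_P521101), 191 kb from the brightest, was dim. It was well above background on 4 of 4 arrays in in vitro-derived RNA and on 0 of 4 in thymic RNA, so its thymic level is only an upper bound. By the measured signals the log2 difference was 0.47 ± 0.06 (1.38-fold, limma adjusted p = 0.0029), with a 95% interval of 0.30 to 0.63. The measured means were 6.96 in in vitro-derived and 6.49 in thymic preps. Its call was lost when the background model was fitted on all spots (0.37), when marked spots were kept (0.37) and without thymic prep 2 (0.46). Agilent's processed signals gave it 1.96, so its size changed with the processing.

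Of the 4 listed markers of plasmacytoid dendritic cells, 3 were tested and 1 was called, beside 52% of all genes. Irf8, a transcription factor of that lineage, differed by 0.33 ± 0.06 by its brighter probe (limma adjusted p = 0.0071), and its other probe gave 0.13. Spib (-0.05 ± 0.08) and Klk1 (0.01 ± 0.08) were not called, and Siglech did not pass the filter on dim probes. The summed linear intensity of the 3 tested markers was 1360 and 1390 in in vitro preps 1 and 2, against 1140 and 1170 in thymic preps 1 and 2. Their part in the Tcf4 result was not tested.

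Lyl1 has a single probe (A_51_P143190), which was dim but well above background on all 4 arrays in both channels. It had log2 levels of 8.46 and 8.24 in in vitro preps 1 and 2, against 7.15 and 7.17 in thymic preps 1 and 2. The groups did not overlap and the difference was 1.19 ± 0.09 (2.27-fold; limma adjusted p = 4.0e-04). Agilent's processed signals gave 1.90, over 1.5 times as much on the log2 scale.

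Id2, the inhibitor that marks mature CD8 and innate lymphocytes, was lower in in vitro-derived cells by both probes. The brighter (A_52_P240542) had log2 levels of 11.45 and 11.61 in in vitro preps 1 and 2, against 14.35 and 14.20 in thymic preps 1 and 2. Every array showed the drop, with ratios of -2.86 to -2.61. The log2 difference was -2.74 ± 0.08 (6.7-fold lower; limma adjusted p = 3.3e-05). The other probe (A_51_P219074, 1.42 kb away) had 10.76 and 10.83 in in vitro preps, against 13.21 and 13.08 in thymic preps, and fell by 2.35 ± 0.08 on the log2 scale (5.1-fold; limma adjusted p = 4.2e-05). The raw signals show the same without normalisation: mean Cy5 signals of this brighter probe were 4820 to 5350 for in vitro-derived RNA, against Cy3 signals of 11100 to 12000 for thymic RNA, although Cy5 was the brighter channel for the 12 probes of the other genes.

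NK cells are also rich in Id2, and of their 3 tested markers 2 were called higher in in vitro-derived cells, beside 26.7% of all genes. These were Fcer1g (0.95 ± 0.27, limma adjusted p = 0.033) and Tyrobp (0.83 ± 0.18, limma adjusted p = 0.014). Klrb1c was not called (0.34 ± 0.29, limma adjusted p = 0.38). The summed linear intensity of the 3 tested NK markers was 855 and 1490 in in vitro preps 1 and 2, against 666 and 635 in thymic preps 1 and 2. Ncr1, a defining NK receptor, did not pass the filter on dim probes. The part of NK cells in the Id2 result was not tested.

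Id3, an inhibitor that T cell receptor signals induce in thymocytes through Egr factors, had overlapping groups. Its probe (A_51_P380178) had log2 levels of 12.53 and 12.92 in in vitro preps 1 and 2, against 12.97 and 12.88 in thymic preps 1 and 2. In vitro prep 2 fell among the thymic preps, and only in vitro prep 1 lay below them. The log2 difference was -0.20 ± 0.13 (limma adjusted p = 0.26), with a 95% interval of -0.52 to 0.13. With arrays centred on their median in place of loess it reversed to 0.60 and was called. Without in vitro prep 2 it was -0.38 and called, so that the result for Id3 depends on that prep and on the normalisation.

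Id1, an inhibitor induced by BMP signals in many tissues, was dim and also had overlapping groups. Its brighter probe (A_51_P385786) had log2 levels of 8.25 and 8.60 in in vitro preps 1 and 2, against 8.33 and 7.91 in thymic preps 1 and 2. The ratios ran over both signs, -0.09, 0.27, 0.37 and 0.65 on arrays 1 to 4. The difference was 0.30 ± 0.17 (limma adjusted p = 0.21), with a 95% interval of -0.14 to 0.74. The other probe (A_52_P533809, which lies 0.010 kb away, so that both read nearly the same stretch) gave 0.22 ± 0.20 (limma adjusted p = 0.40) with an interval of -0.28 to 0.72. Neither interval excludes a difference of the size found for Tcfe2a. Median centring gave 0.70 and 0.60, both called, and the brighter probe was also called without thymic prep 1 (0.51).

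**Figure D2:**
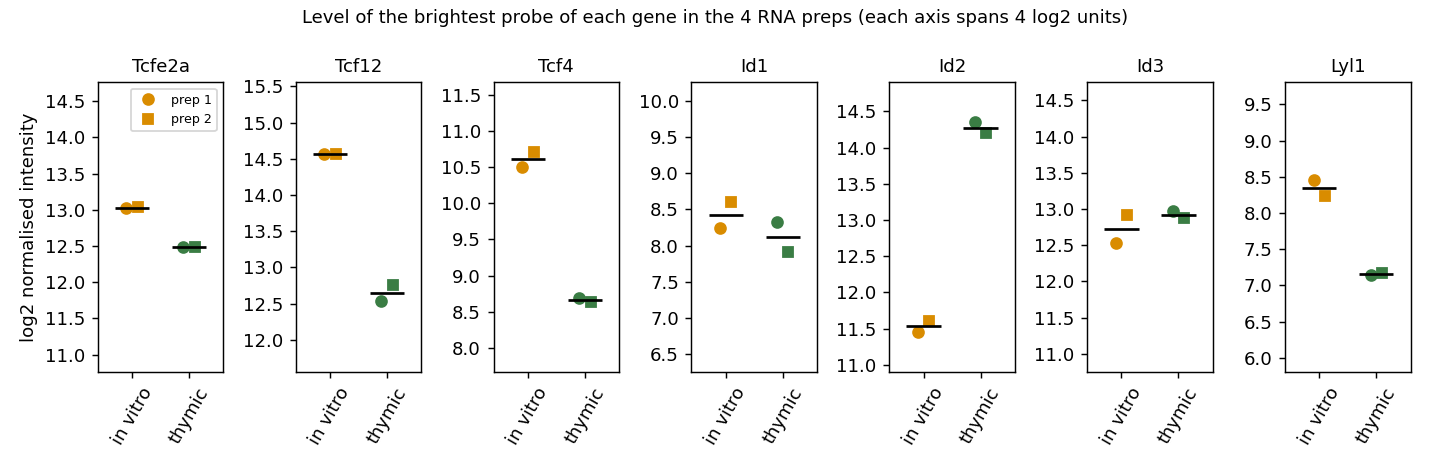
Normalised log2 intensity (vertical axis, 4 units in each panel) of the brightest probe of each gene in the in vitro-derived preps (orange) and the thymic preps (green), with circles for prep 1, squares for prep 2 and bars at the means. Tcf12 and Tcf4 are about as far apart between kinds (1.92 and 1.94), Id2 is apart the other way, and the points of Id1 and Id3 overlap between kinds; levels of different genes come from different probes and are not comparable.

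Median centring moved all members, since it leaves in the part of the ratio that changes with intensity and that loess removes. With no dye swap, dyes and cells as sources of that part cannot be told apart. Loess lowered the 14 ratios by 0.30 to 0.89 relative to median centring, except that of the dim Tcf4 probe, which it raised by 0.09, and over all tested probes the median shift was -0.46. Under median centring 12 of the 14 probes were called higher and 2 (both Id2) lower, and the share of higher calls over all probes was 83.6%, beside 51% with loess. The median of all genes was then 0.39, beside 0.03 with loess, and a member's value is to be read against it. The directions of Tcfe2a, Tcf12, Tcf4, Lyl1 and Id2 were the same under both scalings.

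The members differed in how far the preps of a kind lay apart. In vitro prep 2 exceeded prep 1 by 0.32 and 0.38 in the Id1 probes and by 0.36 in the Id3 probe, whereas the E protein probes lay between -0.28 and 0.13. Over all tested probes the central 95% of this prep difference ran from -0.39 to 0.39, so the Id1 and Id3 values were near its upper edge but within it. Between the thymic preps, Id1 was lower in prep 2 by 0.42 and 0.47, outside the central 95% of -0.22 to 0.20. Only 0.786% and 0.562% of tested probes had a wider thymic gap.

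**Figure D3:**
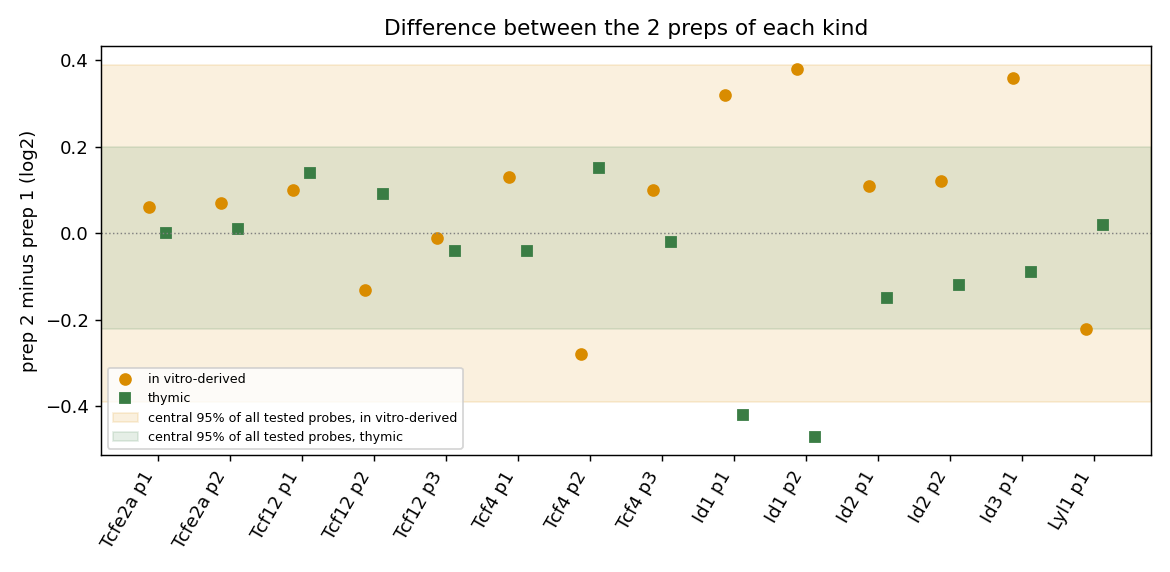
Log2 difference of prep 2 minus prep 1 (vertical axis) within in vitro-derived preps (orange circles) and thymic preps (green squares) for the 14 probes (horizontal axis), with the bands holding the central 95% of all tested probes. The thymic points of Id1, at -0.42 and -0.47, lie below the thymic band, and the in vitro points of Id1 and Id3 lie near the upper edge of the in vitro band.

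Other genes moved between the same preps. The 10 tested stromal markers had a median of 0.33 for in vitro prep 2 minus prep 1, close to the Id1 and Id3 values, and 9 of the 10 were called higher in in vitro-derived cells, beside 26.7% of all genes. Of those 9, Col6a1, Fbn1, Fn1 and Postn were well above background on 0 of 4 arrays in thymic RNA, and Mgp on 1 of 4. All of these passed the filter only through in vitro-derived RNA, so the count of higher calls is a description. Col1a1, a fibroblast collagen, was 3.71 ± 0.09 higher on the log2 scale (13.1-fold, limma adjusted p = 2.4e-05), and its other probe gave 1.22. Acta2, a smooth muscle actin, was lower by its brightest probe (-0.91 ± 0.07, limma adjusted p = 3.9e-04), while another of its 3 probes was called higher (highest probe 0.66). The brightest Acta2 probe alone had log2 levels of 13.62 and 13.55 in in vitro preps 1 and 2, against 14.47 and 14.53 in thymic preps 1 and 2, and it makes up most of the list's summed signal. The summed linear intensity of the list, which therefore runs against the other 9 markers, was 19000 and 20400 in in vitro preps 1 and 2, against 23900 and 24900 in thymic preps 1 and 2. Dcn, Lum, Pdgfra and Cald1, also stromal markers, did not pass the filter on dim probes. The part of stromal RNA in the Id1 and Id3 values was not tested.

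The balance of E protein genes against Id genes was taken as the mean log2 ratio of Tcfe2a, Tcf12 and Tcf4 minus that of Id1, Id2 and Id3, each gene being the mean of its probes. It was 2.19, 1.98, 1.99 and 1.67 on arrays 1 to 4, a mean of 1.96 (SD 0.21), or 3.89-fold towards the E protein genes in in vitro-derived cells. The 4 arrays share preps, so this SD is no spread of 4 independent samples, and no test is given. The E protein side was level over the arrays, at 1.13 (SD 0.02), and the Id side was -0.83 (SD 0.20), so nearly all of the spread in the balance lay on the Id side. The Tcf4 mean includes its dim probe, whose thymic level is only an upper bound. With the filter on both channels, which drops that probe, the balance was 2.08.

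Id2 carried the Id side: its mean log2 ratio was -2.55, against -0.20 for Id3 and 0.26 for Id1. Without Id2 the balance was 1.1, near the E protein side alone (1.13), against 2.5 without Id1 and 2.27 without Id3. Of the 9 pairs of an E protein gene with an Id gene, 8 were above 0 on all 4 arrays. The widest was Tcf12 minus Id2, at 4.22 (18.6-fold), followed by Tcf4 minus Id2 at 3.75 and Tcfe2a minus Id2 at 3.06. Without the dim Tcf4 probe, Tcf4 minus Id2 was 4.12. The narrowest, Tcfe2a minus Id1, averaged 0.26 and was above 0 on 3 of 4 arrays, at 0.60, 0.36, 0.19 and -0.14. The pairs with Id1 and Id3 ran from 0.26 to 1.87. Neither Id gene was called, so these pairs mostly restate the E protein side.

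**Figure D4:**
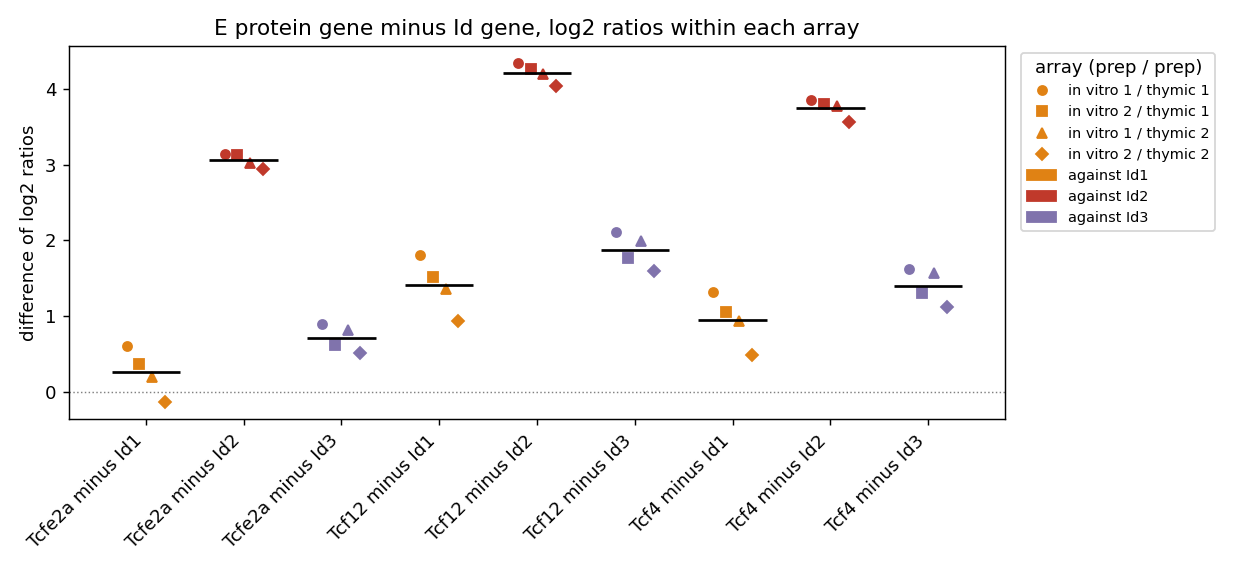
Difference of log2 ratios (vertical axis) for the 9 pairs of an E protein gene minus an Id gene (horizontal axis), with 1 marker shape per array, colours by Id gene and bars at the mean of the 4 arrays. The 3 pairs with Id2 lie above the other 6, between 3.06 and 4.22, and Tcfe2a minus Id1 is the pair with an array below 0.

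Partners and cofactors of helix-loop-helix factors were read from a list of 16 genes, of which 10 were tested. In in vitro-derived cells 7 were called higher, 2 lower and 1 not called, with a median log2 difference of 0.44, beside 0.03 over all genes and 52% of all genes called (26.7% higher and 25.3% lower). Cbfa2t3, a corepressor of the ETO family that binds E proteins, had log2 levels of 11.99 and 11.99 in in vitro preps 1 and 2, against 7.88 and 7.82 in thymic preps 1 and 2. Its difference of 4.14 ± 0.06 (17.6-fold; limma adjusted p = 1.4e-05) exceeded that of every member, and its other probe gave 3.6. Cbfa2t2 of the same family was higher by 1.11 ± 0.08 (limma adjusted p = 2.9e-04). Lmo4, a LIM-only adaptor, was higher by 0.75 ± 0.11 (limma adjusted p = 0.0039).

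The 2 genes called lower were Ldb1 and Lmo1, both parts of complexes that join LIM-only proteins to helix-loop-helix dimers. Ldb1 fell by 0.49 ± 0.06 on the log2 scale (limma adjusted p = 0.0023). Lmo1 was well above background on 0 of 4 arrays in in vitro-derived RNA, so that its signal was at least 1.52-fold lower there (limma adjusted p = 4.7e-04). Ascl2, a helix-loop-helix factor of other T cell subsets, gave 0.05 ± 0.06 and was not called. Hes1, a helix-loop-helix repressor induced by Notch signals, was well above background on 0 of 4 arrays in thymic RNA, so Hes1 and Lmo1 each passed the filter only through the kind where they are high. With the filter set on both channels the list had 5 higher and 1 lower call. The higher calls dropped to 4 with the background model fitted on all spots or with marked spots kept. Id4, Tal1, Tal2, Lmo2, Runx1t1 and Ebf1 did not pass the filter on dim probes.

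Genes known as direct or close targets of E proteins in thymocytes were mostly higher in in vitro-derived cells. Of 16 listed, 15 were tested, and 12 were called higher, 1 lower and 2 not called, with a median of 1.30, beside 0.03 and 26.7% called higher over all genes. Among the 12 was Cdkn1a, a cyclin kinase inhibitor that was well above background on 0 of 4 arrays in thymic RNA, and the filter on both channels left 11. Dntt, the polymerase that adds bases at V(D)J joints, had log2 levels of 17.54 and 17.32 in in vitro preps 1 and 2, against 11.40 and 11.37 in thymic preps 1 and 2. It was 6.05 ± 0.19 higher (66.1-fold, limma adjusted p = 4.0e-05), and the lowest of its 3 probes gave 4.14. Rag1, a subunit of the recombinase that cuts at V(D)J sites, was 4.23 ± 0.12 higher (18.8-fold, limma adjusted p = 3.1e-05). The lowest of its 3 probes gave 2.46. Ptcra, the partner of the beta chain in immature thymocytes, was 3.24 ± 0.08 higher (9.42-fold; limma adjusted p = 2.2e-05).

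Il7r, Cd4 and Socs3 were the tested genes of this list not called higher. The counts do not separate genes that E proteins raise from genes they lower, and E protein activity was not tested. Il7r, the receptor chain for IL7, fell by 0.98 ± 0.12 on the log2 scale (limma adjusted p = 0.0019), with log2 levels of 11.73 and 11.95 in in vitro preps 1 and 2, against 12.80 and 12.84 in thymic preps 1 and 2. Under median centring that call was lost. Cd4 by its brightest probe was 0.15 ± 0.07 (limma adjusted p = 0.12), and another Cd4 probe gave 0.64 and was called. Socs3, a feedback inhibitor of cytokine signals, was -0.10 ± 0.11 (limma adjusted p = 0.50). Rag2 did not pass the filter on dim probes. In the 250 bases before their starts, 10 of 16 windows of the listed genes (62.5%) held CANNTG, a share near that of all windows.

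**Figure D5:**
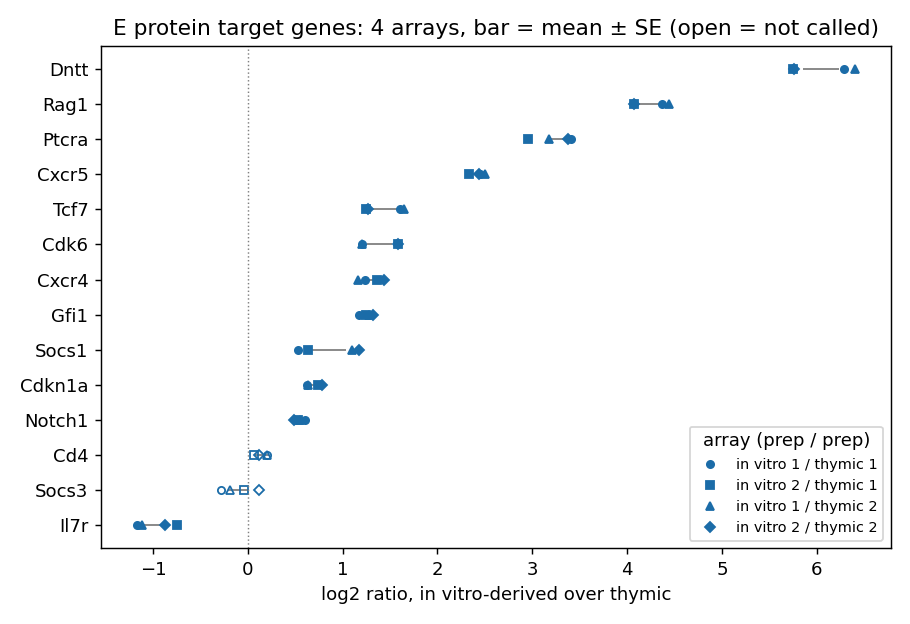
Log2 ratio of in vitro-derived over thymic signal (horizontal axis) of 14 of the 15 tested E protein target genes (vertical axis), with 1 marker shape per array, a bar for the mean ± SE and open markers for genes not called. Dntt lies farthest right at 6.05, Il7r is the one called gene left of 0, and Cd4 and Socs3 lie near 0.

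Signals that act upstream of Id genes went both ways. Of 17 listed genes 15 were tested, with 4 called higher, 7 lower and 4 not called, and a median of -0.11, beside 26.7% called higher and 25.3% called lower over all genes. Egr3, a zinc finger factor induced by T cell receptor signals, fell by 1.55 ± 0.07 on the log2 scale (limma adjusted p = 9.1e-05), although its other probe gave -0.16. The other Egr genes of the list, given because Egr3 is, did not all move with it: Egr1 was higher by 0.88 ± 0.11 (limma adjusted p = 0.0019) and Egr2 was lower, at -0.59 ± 0.10 (limma adjusted p = 0.0068). Tgfbr2, the receptor chain that binds TGF-beta, fell by 1.53 ± 0.07 (limma adjusted p = 1.0e-04), and Smad7, a feedback inhibitor of that receptor, fell by 1.21 ± 0.08 (limma adjusted p = 3.0e-04). Tgfbr1, the signalling chain, was higher by 1.19 ± 0.07 (limma adjusted p = 1.7e-04). The receptor chains of TGF-beta therefore lay on opposite sides of 0, though the weakest probes gave -0.23 for Tgfbr2 and 0.28 for Tgfbr1.

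Enzymes that turn over E and Id proteins or their regulators were read from 8 genes, of which 7 were tested. In in vitro-derived cells 4 were called higher, 2 lower and 1 not called, with a median of 0.70, beside 26.7% called higher and 25.3% called lower over all genes. Cdc20, an activator of the anaphase-promoting complex, was higher by 2.05 ± 0.09 (4.13-fold; limma adjusted p = 9.1e-05). Skp2, a substrate receptor of a ubiquitin ligase, was higher by 1.31 ± 0.11 (limma adjusted p = 5.3e-04). Usp1, a deubiquitinase known to stabilise Id proteins, was higher by 0.92 ± 0.11 (limma adjusted p = 0.0020), and Fzr1, another activator of the anaphase-promoting complex, by 0.70 ± 0.08 (limma adjusted p = 0.0018). Huwe1 (-0.32 ± 0.06) and Stub1 (-0.29 ± 0.06), ubiquitin ligases, were the genes called lower, and neither was called lower without thymic prep 1, without thymic prep 2 or under median centring, which called all 7 tested genes higher. Of the 7 tested Huwe1 probes, 2 were called lower. Several of these turnover genes are also cell cycle genes, and RNA levels say nothing of protein turnover.

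The gene outside the members whose 4 log2 ratios lay nearest was found for each member by Euclidean distance over the 4 arrays among 19155 genes. It was Zfp93 for Tcfe2a (distance 0.02), Oscp1 for Tcf12 (0.07), Nt5dc2 for Tcf4 (0.06) and Mef2a for Lyl1 (0.10). It was Mapt for Id1 (0.10), Cd226 for Id2 (0.18) and Rps6ka3 for Id3 (0.07). Few genes lay as low as Id2, and its nearest gene was the farthest of the 7. With 4 values per gene and 19155 genes compared, nearness alone says nothing of shared regulation, which was not tested.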

How the data were processed

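RNA from 2 in vitro-derived and 2 thymic preps was read on 4 two-colour arrays lying on 1 slide. The authors deposited scanner files with spot intensity values for each channel, which per the file headers came from Agilent Feature Extraction 9.5.1.1, and a series table whose log10 ratio of Cy5 over Cy3 matched the scanner's own (99.6% of values equal within 1e-04; column medians 0; 6110 to 7222 probes per array listed at 0).

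Here, marked spots (133 to 187 per array) were left out, background was corrected by normexp (offset 50) and arrays were normalised by loess in limma 3.58.1 under R 4.3.3. Spots of a probe were averaged. The 4 log2 ratios gave 4 prep values whose difference between kinds is the mean ratio, fitted with lmFit and eBayes (2 residual and 3.19 prior degrees of freedom) over 27236 of 41174 probes that passed the scanner software's test against background on each of the 4 arrays in 1 or both channels. Calls used a Benjamini-Hochberg adjusted p under 0.05. An exact permutation test of 2 against 2 preps cannot go below 0.333 and was not used. The brightest probe stood for a gene in lists. Levels are per-channel log2 intensities averaged over the 2 arrays of a prep, whereas prep differences come from ratios. Levels and prep differences can therefore disagree, even in sign. For the Tcf4 probe A_52_P424847 the levels in in vitro preps 1 and 2 were 9.99 and 10.07, but the prep difference was -0.28. Bounds ("at least") set the bright group's mean against the higher of the dim probe's own signal and the lowest signal well above background. They take no account of the spread between preps. The number of preps limits the precision of these arrays.

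The members and lists were chosen with earlier results of these data known. From each list, up to 4 called genes of largest difference were named, and Cd4, Il7r or Tcf7 where not called. Other genes are named where a count of 5 or fewer, or a shared pattern, called for it, and were chosen after their values were seen. The values of 1 gene of the target list are not reported here, though it is in that list's counts. Gene names were updated through RefSeq, where 22951 probes matched.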

Additional observations from a re-analysis of the deposited data

How the results depend on the processing

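Over the alternatives tried (background model, signals, normalisation, filter, marked spots, the deposited table, each prep or array left out, and the replicate block), the probes of Tcfe2a, both brighter probes of Tcf4 and those of Tcf12, Id2 and Lyl1 kept direction and call. Their ranges were 0.51 to 1.33 for Tcfe2a, 1.85 to 2.81 for Tcf12, 1.78 to 2.47 for Tcf4, -2.82 to -1.94 for Id2 and 0.96 to 1.90 for Lyl1 (brightest probes). Median centring gave 0.70 for Id1 and 0.60 for Id3, both called, and for Id3 reversed. It leaves in the part of the ratio that changes with intensity. With single preps or arrays left out, Id1 ran from 0.09 to 0.51 and Id3 from -0.38 to -0.02; each was called once, Id1 without thymic prep 1 and Id3 without in vitro prep 2. The probes called overall numbered 14223, and 8124 to 14067 with single preps or arrays left out, the lowest counts being 8124 without thymic prep 2 and 8713 without thymic prep 1, which leave an arm with 1 prep assumed to vary like the other. Median centring called 16110 probes higher and 3160 lower, and the fit on all spots and marked spots kept called 4698 and 4729 higher, beside 7248. The balance was 2.35 with brightest probes, and 2.27, 1.69, 2.5, 1.1 and 2.27 without Tcfe2a, Tcf12, Id1, Id2 and Id3; without a prep or array it ran from 1.83 to 2.09. Prep numbers are shared between the kinds, but nothing in the labels pairs them, and the prep differences of the kinds correlated at 0.13 over probes; the fit with the replicate block called 14671 probes and changed no member's call. Id1, Lyl1 and the dim Tcf4 probe had the lowest signal over background, which limits them.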

Other observations

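Among the listed genes, the thymic preps differed like Id1 in Bhlhe40 and Socs1, both named after their values were seen. Thymic prep 2 minus prep 1 was -0.72 for Bhlhe40, a helix-loop-helix repressor, and -0.56 for Socs1, a feedback inhibitor of cytokine signals, beside -0.42 and -0.47 for the Id1 probes. Both were called higher in in vitro-derived cells, Bhlhe40 by 0.85 ± 0.27 (limma adjusted p = 0.050) and Socs1 by 0.86 ± 0.18 (limma adjusted p = 0.013).

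Markers of other cells were called in both directions, beside 26.7% of all genes called higher and 25.3% called lower. Il2ra (3.44 ± 0.26) and Ctla4 (3.54 ± 0.10), listed as markers of regulatory T cells, were called higher in in vitro-derived cells, while Foxp3 and Zbtb7b did not pass the filter on dim probes. Of 7 tested B cell markers 1 was called higher, the adaptor Blnk at 1.24 ± 0.09, and 1 lower, Cd79b at -0.43 ± 0.08. Of 6 tested myeloid markers 2 were called higher, Itgam (0.64 ± 0.12) and Mpo (0.47 ± 0.10). Itgam was well above background on 0 of 4 arrays in thymic RNA, so it passed the filter only through in vitro-derived RNA. The 2 called lower were the lysozyme gene Lyz2 (-1.53 ± 0.22) and Csf1r (-0.44 ± 0.09), whose other probe gave 0.04. Of 3 endothelial markers 1 was called higher and of 2 erythroid markers 1 higher.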
